A study of Mus musculus with 6 samples.

Results

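Smooth muscle cells (SMC) of the aorta owe their contractile identity to a small set of transcription factors. The 10 genes described here include such factors and others that are not particular to SMC: Myocd, Srf, Mef2a, Mef2c, Mef2d, Tead1, Foxo1, Foxo3, Prrx1 and Tcf21. They were taken from a list of names that was drawn up with earlier results of these data known, and are 10 of the 55402 features listed in the deposited tables, of which 18687 had at least 1 UMI (unique molecular identifier, a count of captured RNA molecules). All 10 had UMIs in each of the 6 libraries. Serum response factor, the product of Srf, binds CArG boxes in the promoters of contractile genes, and myocardin, the product of Myocd, is the coactivator of muscle cells that directs it to them. MEF2 and TEAD factors bind further elements of muscle promoters, and FOXO factors are held in the cytoplasm by insulin and growth factor signalling. Prrx1 and Tcf21 belong to mesenchymal and epicardium-derived cells, and Tcf21 is known from atherosclerosis in mice for its part in SMC modulation, in which SMC lower their contractile genes and express matrix genes.

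The libraries were 3′ single-cell RNA libraries from aortic roots of male animals, 24 weeks old, and 4 mice of a genotype were pooled before digestion. Mice of the first group carried the Fbn1 C1041G/+ allele, a model of Marfan syndrome, together with a floxed Klf4 allele that the series' design gives as deleted by induction. Marfan mice carried Fbn1 C1041G/+ with wild type Klf4, and littermate controls carried neither change. Each suspension was sorted on tdTomato into an SMC lineage-positive and a lineage-negative fraction; the labels name neither the promoter behind the lineage mark nor the one behind the deletion. Every combination of genotype and fraction is thus 1 library, so that differences between genotypes have no replicate check, carry no p-value and are given with 95% intervals that cover counting error only.

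The libraries held 5167 to 22905 barcodes, of which 39483 cells in all were kept, and 376 of 59824 distinct barcodes occurred in more than 1 library. The tdTomato transcript stood at 227 to 414 CPM (UMIs of a gene per 1000000 UMIs) in the lineage-positive libraries and at 2.55 to 5.36 CPM in the lineage-negative ones. The Marfan lineage-positive library stood apart in depth: its kept cells had a median of 2143 UMIs, against 9881 to 12858 in the other libraries, and 39.0% of its barcodes had under 1000 UMIs. Klf4 counts went against the label, at 109 CPM in SMC of the library labelled Klf4-floxed, 39.5 CPM in Marfan SMC and 23.6 CPM in control SMC. Reads at the 3′ end that lie outside the deleted part check nothing, so this group is called the library labelled Klf4-floxed, and every direction drawn from it rests on that label. Cells were grouped into 24 clusters from genes other than the 10 factors, and clusters were named from marker genes. The lineage-positive cells of the SMC-like clusters, called the SMC class below, numbered 5635 in the library labelled Klf4-floxed, 10516 in Marfan and 4983 in control, and expressed 10 of 10 SMC markers in each. Their cluster makeup differed: clusters 1, 5 and 4 held 45.3%, 22.2% and 17.9% of the class in the library labelled Klf4-floxed, clusters 0, 1 and 5 held 52.4%, 20.4% and 12.7% in Marfan, and clusters 3, 4 and 1 held 52.4%, 27.3% and 14.4% in control. Cluster 0 was mostly shallow cells of the Marfan library, with a median of 1340 UMIs there, and gave 14.2% of that library's SMC UMIs.

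Myocd (ENSMUSG00000020542.18, mm10 chr11:65176561-65269989, minus strand) was the factor most restricted to SMC among the classes compared. Lineage-positive cells of the unnamed clusters 9 and 16, outside these classes, also had Myocd, in cluster 16 near the SMC level (see the closing section). The Myocd level in the SMC class was 72.8 CPM in the library labelled Klf4-floxed, 80.1 CPM in Marfan and 84.7 CPM in control. In fibroblast-like cells it was 3.72, 1.75 and 4.07 CPM in the same order of genotypes, and in macrophage-like cells no UMI was found, below a limit of 3 counts that corresponds to 1.01 to 1.34 CPM. After each cell was thinned to 2000 UMIs, 13.7%, 14.8% and 14.8% of SMC had a Myocd UMI, against 0.231% to 0.779% of fibroblast-like cells and 0 of 205 to 305 macrophage-like cells, for which the exact 95% limit was at most 1.78%. The thinning left out 135, 5148 and 119 SMC below 2000 UMIs; before it, median depths were 13128, 2062 and 11455 UMIs in SMC and 8490, 8885 and 10386 UMIs in macrophage-like cells.

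Srf (ENSMUSG00000015605.6, chr17:46548329-46556175, minus strand) was also highest in SMC, at 15.04 CPM in the library labelled Klf4-floxed, 15.7 CPM in Marfan and 17.2 CPM in control. The next class, valve interstitial- or chondrocyte-like cells, had 6.14 to 8.10 CPM, and fibroblast-like, macrophage-like and endothelial-like cells overlapped with it between 4.01 and 9.31 CPM. Srf was thus present in all 5 classes compared, whereas its coactivator Myocd was close to absent from the 4 classes other than SMC. The Srf promoter itself held CArG boxes, the sites that SRF binds. Promoters of 300 bases, from 250 before to 50 after the start, were read from the RefSeq table for build GRCm38.p6, which matched 8 of the 10 factors (not Myocd or Tead1) and 17 of 21 contractile target genes. A CArG box was searched on both strands as the strict pattern CCWWWWWWGG, where W is A or T. It was found in 535 of 32851 promoters of all genes (1.63%). Among the matched genes it was found in Srf and in the contractile genes Myl9, the regulatory myosin light chain, and Vcl, vinculin of focal adhesions. Boxes that depart from this pattern were not sought, so a promoter without a match may still hold one. These promoters are printed 5′ to 3′ on the gene's strand with the CArG boxes in capitals, since they hold the boxes in the gene of SRF itself and in targets measured below: Srf at chr17:46556113-46556412 (minus strand), Myl9 at chr2:156775214-156775513 (plus strand) and Vcl at chr14:20929148-20929447 (plus strand).
Srf: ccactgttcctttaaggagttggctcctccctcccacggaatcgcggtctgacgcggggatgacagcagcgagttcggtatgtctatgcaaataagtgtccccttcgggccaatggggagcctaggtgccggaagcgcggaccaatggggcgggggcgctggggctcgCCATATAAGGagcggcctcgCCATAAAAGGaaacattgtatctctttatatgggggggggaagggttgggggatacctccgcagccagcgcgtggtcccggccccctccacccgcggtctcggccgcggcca
Myl9: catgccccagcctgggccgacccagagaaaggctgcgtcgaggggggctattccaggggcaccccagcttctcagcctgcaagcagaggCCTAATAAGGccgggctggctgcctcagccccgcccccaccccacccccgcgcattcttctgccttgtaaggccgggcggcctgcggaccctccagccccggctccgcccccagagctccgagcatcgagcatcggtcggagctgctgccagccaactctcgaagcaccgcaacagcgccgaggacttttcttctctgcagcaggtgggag
Vcl: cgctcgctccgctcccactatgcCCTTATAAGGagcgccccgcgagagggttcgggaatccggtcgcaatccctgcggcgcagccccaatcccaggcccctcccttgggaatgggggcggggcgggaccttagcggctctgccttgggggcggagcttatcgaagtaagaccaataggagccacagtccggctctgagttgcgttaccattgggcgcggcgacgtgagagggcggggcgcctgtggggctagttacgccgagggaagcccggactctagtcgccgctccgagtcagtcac
The Srf boxes, CCATATAAGG and CCATAAAAGG, begin 82 and 62 bases before the start, the Myl9 box CCTAATAAGG begins 161 bases before it, and the Vcl box CCTTATAAGG begins 227 bases before it. None of these boxes overlapped a match to the other motifs searched. The MCAT box GGAATG, the TEAD motif, searched on both strands, was found in 14.7% of all promoters, in those of Foxo3, Mef2c and Prrx1, and in 8 of 18 promoters of the contractile targets, among them Acta2, Mylk and Tpm1. The FOXO motif GTAAACA was found in 3.65% of all promoters, in none of the matched factors and in 1 contractile target, Cald1, and the MEF2 site was found in 0.557% of all promoters, in Mef2a and in Synpo2. These matches describe the letters of the window and not binding.

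The MEF2 genes were not SMC-restricted. Mef2c (ENSMUSG00000005583.16, chr13:83504034-83667080, plus strand), needed for heart and vessel development, was highest in macrophage-like cells, at 586 CPM in the library labelled Klf4-floxed, 442 CPM in Marfan and 554 CPM in control, and second in SMC, at 274, 248 and 288 CPM. Mef2a (ENSMUSG00000030557.17, chr7:67231163-67372858, minus strand), another member of the family found widely in muscle, ran likewise from 328 to 399 CPM in macrophage-like cells and from 167 to 186 CPM in SMC. Its locus overlaps Lysmd4, which also had UMIs. Mef2d (ENSMUSG00000001419.17, chr3:88142372-88172086, plus strand) had 35.6, 36.1 and 39.8 CPM in SMC and 34.7 to 44.6 CPM in macrophage-like cells, so that these ranges overlapped. In these data neither Mef2a nor Mef2c separated SMC from other cells as Myocd did, and fibroblast-like cells had the lowest levels of both, at 99.4 to 121 CPM over the 2 genes and 3 genotypes.

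Tead1 (ENSMUSG00000055320, chr7:112679318-112906807, plus strand), the DNA-binding partner of the Hippo pathway coactivators YAP and TAZ, was found in every class compared but was close to absent from macrophage-like cells. Fibroblast-like cells had 86.6 CPM in the library labelled Klf4-floxed, 83.5 CPM in Marfan and 79.3 CPM in control, and SMC had 78.9, 85.6 and 55.5 CPM. The ranges of these 2 classes overlapped, and valve interstitial- or chondrocyte-like cells at 48.6 to 57.4 CPM overlapped the control SMC value. Endothelial-like cells had 40.9 to 47.6 CPM, and macrophage-like cells 1.10 to 3.02 CPM.

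Foxo1 (ENSMUSG00000044167.6, chr3:52268336-52353221, plus strand), a regulator of metabolism and of vessel growth, was highest in endothelial-like cells, at 94.3, 75.2 and 116 CPM in the library labelled Klf4-floxed, Marfan and control, a range that overlapped that of fibroblast-like cells at 61.5 to 82.0 CPM. SMC had 24.3, 24.2 and 28.6 CPM. Foxo3 (ENSMUSG00000048756.11, chr10:42181841-42276755, minus strand), which drives stress resistance and cell cycle exit genes, was highest in macrophage-like cells at 41.6 to 50.03 CPM and in valve interstitial- or chondrocyte-like cells at 40.3 to 50.2 CPM, and low in SMC at 18.4, 25.8 and 21.6 CPM. Both FOXO genes were thus lower in SMC than in fibroblast-like cells of each genotype.

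Prrx1 (ENSMUSG00000026586.16, chr1:163245119-163313710, minus strand), a homeobox gene of limb and craniofacial mesenchyme, was highest in valve interstitial- or chondrocyte-like cells at 299 to 306 CPM, followed by fibroblast-like cells at 201 to 248 CPM and SMC at 69.4 to 72.2 CPM, with no overlap between these ranges. Tcf21 (ENSMUSG00000045680.8, chr10:22817281-22820174, minus strand), a basic helix-loop-helix factor required for cardiac fibroblasts, was the most fibroblast-restricted member, at 257, 223 and 244 CPM in fibroblast-like cells against 8.04, 9.10 and 11.1 CPM in SMC. Over the 5 classes compared, 7 of the 10 genes had the same highest class in all 3 genotypes, and for 6 the range of the highest class lay above that of the next. The exceptions with a changing highest class were Mef2d, Tead1 and Foxo3.

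**Figure D1:**
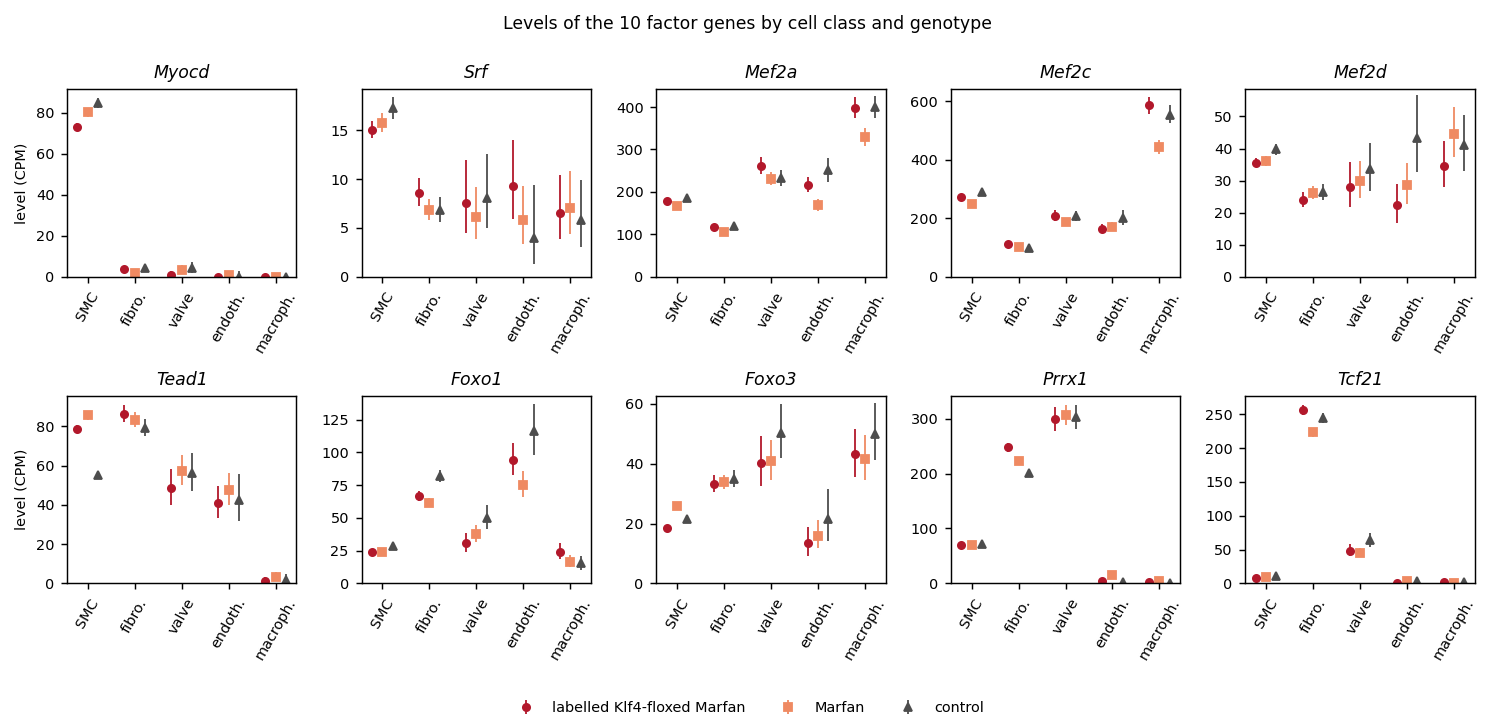
Levels of the 10 genes in CPM (y axis) in the 5 cell classes (x axis) of the library labelled Klf4-floxed Marfan, Marfan and control, with bars for exact 95% Poisson intervals of the counts. Myocd is seen in SMC at 72.8 to 84.7 CPM and at most 4.07 CPM in the other classes, Tcf21 peaks in fibroblast-like cells, and Mef2a and Mef2c peak in macrophage-like cells.

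The sort supplied the one comparison with replication, since it was repeated in 3 genotypes. Lineage-positive libraries, which were mostly SMC, were compared with lineage-negative ones by edgeR's quasi-likelihood test. Genotype was a block, with Benjamini-Hochberg adjustment over 15064 genes. The residual has 2 degrees of freedom and is the difference in the sort effect between the 3 pools, which differ in genotype. The test also draws each gene's spread towards that of all genes. The p-values therefore do not measure the spread between animals of a genotype. Of all genes tested, 33.5% were higher in lineage-positive libraries and 37.2% lower, and beside this background 6 of the 10 factors were higher and 3 lower. Myocd stood at 71.2, 78.1 and 82.7 CPM in the lineage-positive libraries labelled Klf4-floxed, of Marfan and of control, and at 3.62, 3.31 and 5.65 CPM in their lineage-negative partners. Its log2 difference was 4.58 (SE 0.14, adjusted p = 1.3e-05 by edgeR). Srf was higher by 1.44 (SE 0.11, adjusted p = 0.000228 by edgeR), at 14.9, 15.5 and 16.96 CPM against 7.70, 7.66 and 6.55 CPM. The partner pair SRF and myocardin thus rose together in the lineage-positive fraction in 3 of 3 genotypes.

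Mef2c rose by 0.99 (SE 0.077, adjusted p = 0.00022 by edgeR) and Mef2d by 0.71 (SE 0.075, adjusted p = 0.000658 by edgeR), both in 3 of 3 genotypes. Tcf21 fell by 2.47 (SE 0.06, adjusted p = 7.8e-06 by edgeR), with 11.9, 12.8 and 16.1 CPM in the lineage-positive libraries and 87.0, 86.5 and 112 CPM in the lineage-negative ones. Prrx1 fell by 0.93 (SE 0.067, adjusted p = 0.000171 by edgeR) and Foxo1 by 0.60 (SE 0.071, adjusted p = 0.000979 by edgeR), each in 3 of 3 genotypes. The mesenchymal factors and Foxo1 were therefore on the opposite side of the sort from Myocd and Srf. Foxo3 had a log2 difference of -0.18 (SE 0.12) that did not pass the test (adjusted p = 0.22 by edgeR).

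The calls of Mef2a and Tead1 depended on the scaling and on single genotypes. Mef2a had a log2 difference of 0.28 (SE 0.067, adjusted p = 0.0137 by edgeR), although its plain CPM was lower in the lineage-positive library of each genotype, at 181, 168 and 188 against 201, 170 and 189 CPM. With library totals in place of TMM (edgeR's trimmed-mean scaling) the median of all genes was -0.37 instead of -0.03, 24.9% of all calls instead of 47.4% were higher, and Mef2a turned to -0.06 (adjusted p = 0.425 by edgeR). Tead1 had a log2 difference of 0.49 (SE 0.13, adjusted p = 0.0205 by edgeR) and was higher in 2 of 3 genotypes by CPM: 80.5 against 67.9 CPM in the pair labelled Klf4-floxed and 85.9 against 62.6 CPM in Marfan, but 55.8 against 66.8 CPM in control. Under library totals its difference was 0.15 (adjusted p = 0.385 by edgeR), and Foxo3 passed the test at -0.52 (adjusted p = 0.0157 by edgeR). Without the pair labelled Klf4-floxed, the adjusted p was 0.0661 for Mef2a and 0.101 for Tead1, and without the Marfan pair it was 0.0667 and 0.127, in the same edgeR fit; without the Marfan pair Foxo3 passed at -0.37 (adjusted p = 0.0209).

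The related genes of each factor followed the sort unevenly. The lists were chosen with earlier results of these data known, and their counts are descriptions beside a median log2 difference of -0.03 over all genes. All 21 contractile targets of SRF and myocardin were higher in lineage-positive libraries, with a median log2 difference of 4.21. Of the 19 SRF cofactors and competitors, 10 were higher and 7 lower, with a median of 0.47. Of 17 tested genes of the TEAD family and the YAP-TAZ axis 8 were higher and 5 lower, of 15 MEF2 family members, class IIa HDACs and MEF2 targets 7 were higher and 4 lower, and of 19 FOXO family members and targets 6 were higher and 8 lower. Mesenchymal and epicardial factors lay on the other side, with 5 of 20 higher and 13 lower and a median of -1.47.

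Within the SMC class, 1 of the 10 genes differed by 1.5-fold or more between Marfan and control. A gene was counted as changed at a ratio of 1.5-fold or more among genes with at least 5 CPM in either library, which held for 3.79% of 9391 genes upwards, 2.68% downwards and 6.47% in either direction. Tead1 was the 1 factor past this mark: 5551 UMIs gave 85.6 CPM in Marfan SMC, and 3129 UMIs gave 55.5 CPM in control SMC, a ratio of 1.54-fold (log2 0.63, interval 0.56 to 0.69). This ratio was known when the factors were chosen, so the count of 1 is a description and not a result about an independent list. Myocd had 80.1 CPM in Marfan and 84.7 CPM in control (log2 -0.08, interval -0.14 to -0.02), and Srf had 15.7 CPM in Marfan and 17.2 CPM in control (log2 -0.13, interval -0.26 to -0.0031). The 10 log2 ratios had a median of -0.14, beside -0.08 over all genes tested. For Myocd the sign depended on the cluster, since its log2 ratio was 0.11 within cluster 1 and -0.44 within modulated cluster 5 (described below). Cluster 5, where Myocd was lowest, gave 22.7% of SMC UMIs in Marfan and 2.21% in control. In unmodulated SMC alone, given below, Myocd was higher in Marfan than in control, and Srf was nearly equal. Foxo3 had a log2 ratio of 0.26 (interval 0.15 to 0.37), which was 0.72, past the mark, with each cell weighted alike and 0.02 with at least 4000 UMIs per cell. Tcf21 had a log2 ratio of -0.29, and -0.62, past the mark, within cluster 3.

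The Tead1 difference lay close to the mark and was uneven over clusters. Its log2 ratio was 0.20 to 0.70 over 16 other ways of processing, and it fell below 1.5-fold when mitochondrial and ribosomal protein genes were left out of the total (0.58), when each cell was weighted alike (0.55), and when modulated clusters were left out (0.58). Within clusters, Tead1 in Marfan SMC was 87.2 CPM in cluster 1, against 57.5 CPM in control SMC, and likewise 84.3 against 54.7 CPM in cluster 4 and 92.6 against 57.8 CPM in cluster 5. In cluster 3, which is led by Rgs4 and Optc and holds most control SMC, Marfan SMC had 63.1 CPM and control SMC 54.9 CPM, with a log2 ratio of 0.20. Erythroid marker genes, which can enter droplets as free RNA, summed to 28.2 CPM in SMC of the library labelled Klf4-floxed, 71.2 CPM in Marfan and 2.59 CPM in control; their part in the result was not tested. Depth moved with genotype too, and with at least 4000 UMIs per cell the log2 ratio was 0.64. This limit does not match depth between libraries. It also changes the cluster makeup, since Marfan cells of cluster 0 had a median of 1340 UMIs. The part of depth in the result was not tested.

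In the library labelled Klf4-floxed, none of the 10 factors was 1.5-fold from Marfan in SMC, where 0.896% of 9265 genes were (0.335% higher, 0.561% lower), and none was 1.5-fold from control, where 5.82% of 9388 genes were (3.54% higher, 2.28% lower). These comparisons share libraries with each other and with the one above. Tead1 had 78.9 CPM in the library labelled Klf4-floxed and 55.5 CPM in control (log2 0.51, interval 0.45 to 0.57), and against Marfan its log2 ratio was -0.12 (interval -0.17 to -0.07). Against control it ranged with the cluster, from -0.01 in cluster 3 to 0.68 in cluster 4, where it passed the mark. Myocd had 72.8 CPM in the library labelled Klf4-floxed and 80.1 CPM in Marfan (log2 -0.14, interval -0.19 to -0.08), and the ratio to control was -0.22 (interval -0.27 to -0.16). The Myocd ratio to control was 0.05 within cluster 3 and -0.66 within modulated cluster 5. Cluster 5 gave 25.8% of SMC UMIs in the library labelled Klf4-floxed and 2.21% in control. In unmodulated SMC alone, given below, the Myocd level was nearly that of control. Tcf21, at 8.04 CPM in the library labelled Klf4-floxed and 11.1 CPM in control, had a log2 ratio of -0.47 (interval -0.63 to -0.31).

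Foxo3 gave the largest distance of the 10 between the library labelled Klf4-floxed and Marfan, at 18.4 and 25.8 CPM (log2 -0.49, interval -0.59 to -0.38). Its Marfan level was highest in the shallow cells: in cluster 0 it had 14.8 CPM in the library labelled Klf4-floxed, 44.4 CPM in Marfan and 15.3 CPM in control, whereas in cluster 1 it had 17.2, 21.1 and 16.98 CPM. Without cluster 0 the log2 ratio was -0.30, with at least 4000 UMIs per cell it was -0.22, and with each cell weighted alike it was -0.98, past the mark. The direction was the same in all 16 alternatives.

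**Figure D2:**
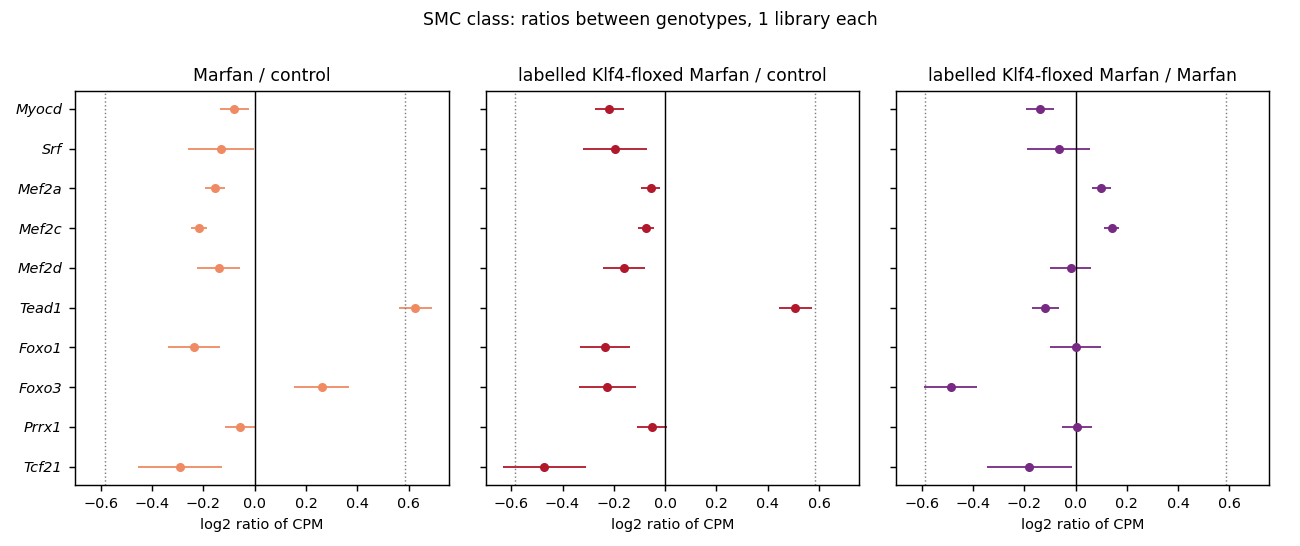
Log2 ratios of CPM in the SMC class (x axis) for the 10 genes (y axis) in 3 comparisons of 1 library each, with exact 95% intervals of the counts; dotted lines mark 1.5-fold. Tead1 lies at 0.63 for Marfan over control and at 0.51 for the library labelled Klf4-floxed over control, and Foxo3 at -0.49 for the library labelled Klf4-floxed over Marfan.

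**Figure D3:**
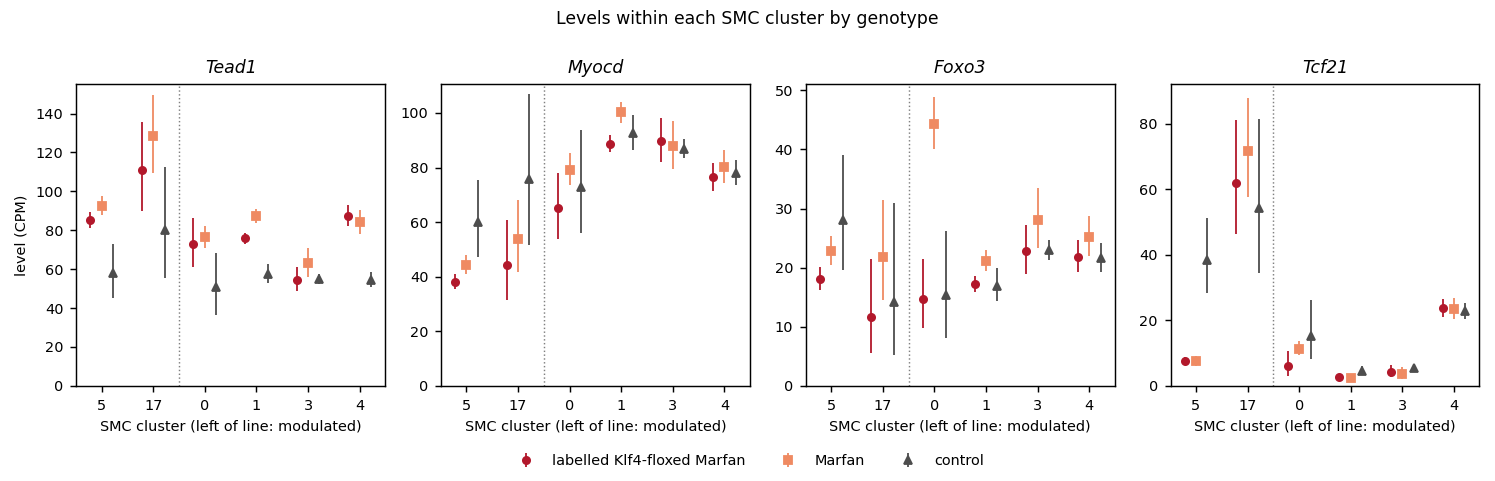
Levels in CPM (y axis) of selected genes within each SMC cluster (x axis, modulated clusters 5 and 17 left of the line) for the library labelled Klf4-floxed Marfan, Marfan and control, with exact 95% Poisson intervals. In cluster 3 the Tead1 levels of 54.6, 63.1 and 54.9 CPM lie closer together than in clusters 1, 4 and 5, and Myocd is lowest in cluster 5 in each genotype.

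In each list of genes related to a factor, 1 to 4 genes differed by 1.5-fold or more between Marfan and control SMC, where 6.47% of all genes did. Of the separate list of modulated SMC genes, 14 of 15 were higher in Marfan and 0 lower. In the TEAD list, 2 of 16 tested genes were higher in Marfan and 0 were lower. Ankrd1 had 95.5 CPM in Marfan against 24.9 CPM in control (log2 1.94), and Ccn2 had 2176 against 1320 CPM (log2 0.72). Both are known targets of YAP and TAZ. The rest of the tested list stayed within 1.5-fold, from -0.33 for Tead2 to 0.37 for Vgll3, with Ccn1 at -0.03. The list as a whole was centred close to no change, at a median of -0.004. Of the contractile targets, 0 of 21 were higher and 1 was lower, the atrophy-linked ubiquitin ligase gene Fbxo32 with 89.2 CPM in Marfan against 136 CPM in control. The cofactor list had 1 of 17 higher, Klf4, a repressor of the myocardin programme, and 2 lower, of which Heyl had 51.0 CPM in Marfan and 90.9 CPM in control. In the MEF2 list 2 of 14 were higher, Klf2 and Rcan1, and 2 lower, including Nr4a1 with 24.7 CPM in Marfan against 43.5 CPM in control. Of 18 FOXO-linked genes 2 were higher and 2 lower, and of 15 mesenchymal factors 1 was higher and 2 lower, including Osr1 with 127 CPM in Marfan against 195 CPM in control. Between the library labelled Klf4-floxed and Marfan, the lists of cofactors and mesenchymal factors held 1 changed gene each, Klf4 in the first, and the contractile, MEF2, TEAD and FOXO lists held none. Of the modulated SMC genes, 3 of 15 were lower in the library labelled Klf4-floxed and 0 higher.

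Myocd and Srf differed more between modulated and unmodulated SMC of each library than between genotypes over the whole SMC class. Among modulated cells this order did not hold for Myocd. Within cluster 5 its log2 ratio of the library labelled Klf4-floxed to control was -0.66, past the -0.41 between modulated and unmodulated SMC of control. The modulated cells are those of clusters 5 and 17, chosen for high levels of matrix and injury genes such as Spp1, Timp1, Vcam1 and Tnfrsf11b, while the 10 factors were kept out of the clustering; they numbered 1308 in the library labelled Klf4-floxed, 1455 in Marfan and 128 in control. Myocd had 38.4 CPM in modulated and 85.5 CPM in unmodulated SMC of the library labelled Klf4-floxed (log2 -1.16, interval -1.27 to -1.05). In Marfan it had 45.2 CPM in modulated and 91.6 CPM in unmodulated SMC (log2 -1.02, interval -1.13 to -0.91), and in control 64.1 and 85.3 CPM (log2 -0.41, interval -0.70 to -0.13). Srf had 9.26 CPM in modulated and 17.2 CPM in unmodulated SMC of the library labelled Klf4-floxed (log2 -0.89), 10.9 and 17.3 CPM in Marfan (log2 -0.66), and 12.6 and 17.4 CPM in control (log2 -0.46, interval -1.16 to 0.16, from 21 UMIs in modulated cells). Both were lower in modulated SMC of all 3 libraries, by 1.5-fold or more in the library labelled Klf4-floxed and in Marfan, and the differences between genotypes in this response were not tested.

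Counted over the 10 factors, 2 were lower by 1.5-fold or more in the library labelled Klf4-floxed, where 8.06% of all genes were lower, 9.84% higher and 17.9% past the mark in either direction. In Marfan 2 were lower and 1 higher, where 6.87% of genes were lower, 9.95% higher and 16.8% either, and in control 1 was higher, where 12.2% were higher, 8.45% lower and 20.6% either. The other factors stayed within 1.5-fold. Mef2a had 196, 204 and 230 CPM in modulated SMC and 173, 155 and 185 CPM in unmodulated SMC of the library labelled Klf4-floxed, Marfan and control, and Tead1 had 86.4, 95.5 and 63.5 CPM against 76.1, 82.4 and 55.2 CPM. Prrx1 had 79.9, 81.3 and 101 CPM against 65.9, 65.5 and 71.3 CPM. These 3 genes were higher in modulated cells of each library, with log2 ratios of 0.18 to 0.50, though the interval of Tead1 in control ran from -0.09 to 0.48, and Prrx1 in control was -0.15 when the factors were among the variable genes. Mef2c had 244, 244 and 260 CPM in modulated SMC against 285, 250 and 289 CPM in unmodulated SMC, and the remaining Mef2d, Foxo1 and Foxo3 differed in sign between libraries.

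Tcf21 was higher in modulated SMC, but not through all of them. It had 9.80 CPM in modulated and 7.39 CPM in unmodulated SMC of the library labelled Klf4-floxed (log2 0.41), 12.6 and 7.94 CPM in Marfan (log2 0.67), and 42.6 and 10.2 CPM in control (log2 2.06, interval 1.69 to 2.42, from 71 UMIs in modulated cells). The small cluster 17, whose leading genes are interferon-induced (Iigp1, Ifit1, Ifit3), had the higher levels in each library, with 61.9, 71.6 and 54.4 CPM in the 3 genotypes, against 7.51, 7.48 and 38.5 CPM in cluster 5. Without cluster 17 the log2 ratio was 0.02 in the library labelled Klf4-floxed, -0.09 in Marfan and 1.92 in control. Summed fibroblast markers moved in the same direction, at 988, 1265 and 1973 CPM in modulated and 804, 929 and 943 CPM in unmodulated SMC, and in modulated control cells 7 of 10 had a UMI while Dpep1, Pi16 and Clec3b had none. Summed valve interstitial or chondrocyte markers were at 406, 645 and 685 CPM in modulated and 71.7, 129.9 and 63.2 CPM in unmodulated SMC, with 7 to 9 of 10 detected and Cnmd at 0 in modulated cells of each library. Lum of the fibroblast list and Cytl1 of the valve list are also among the markers that named the modulated clusters. Both sums are therefore not independent of the choice of modulated cells. The part of both lists in the Tcf21 values was not tested. Among unmodulated clusters Tcf21 was highest in cluster 4, led by Tnnt2, Psd and Corin, at 23.6, 23.5 and 22.8 CPM, and lowest in cluster 1, at 2.63, 2.35 and 4.52 CPM.

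**Figure D4:**
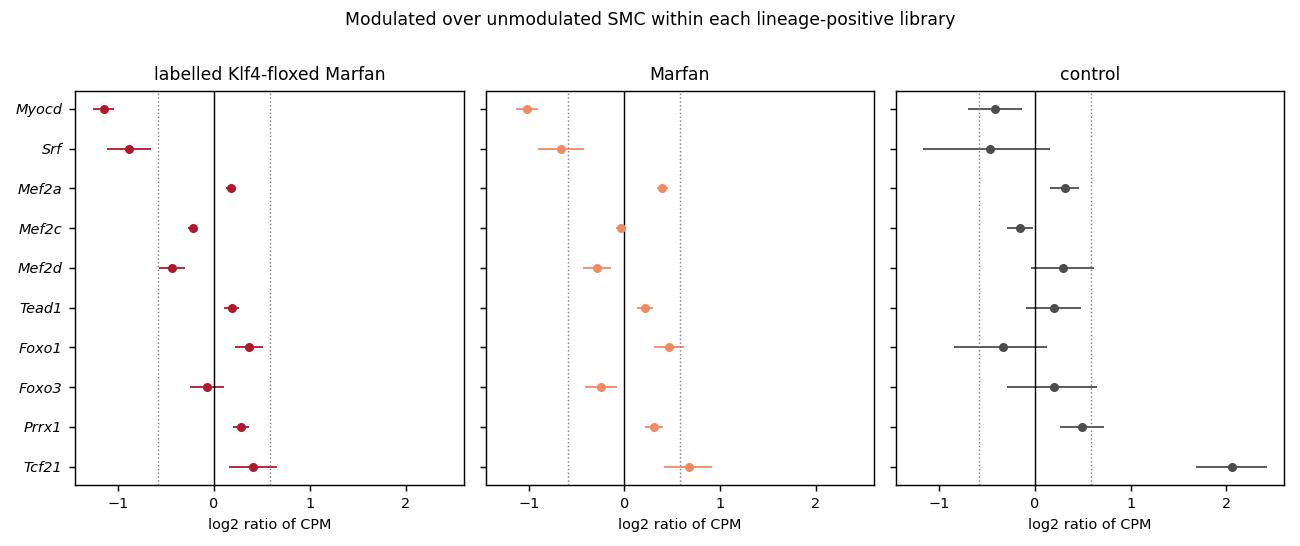
Log2 ratios of CPM of modulated over unmodulated SMC (x axis) for the 10 genes (y axis) within each lineage-positive library, with exact 95% intervals of the counts and dotted lines at 1.5-fold. Myocd and Srf lie below 0 in all 3 panels, at -1.16 and -0.89 in the library labelled Klf4-floxed Marfan, and Tcf21 lies at 2.06 in control.

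The contractile targets of SRF and myocardin followed the 2 factors into the modulated cells, although these genes, unlike the factors and their other lists, were open to use in forming and naming the clusters, so their counts describe the clusters. Of 21 targets, 19 were lower by 1.5-fold or more in the library labelled Klf4-floxed, 19 in Marfan and 16 in control, and none was higher, with median log2 ratios of -1.12, -1.19 and -0.88 beside -0.07, -0.04 and 0.01 over all genes. Myl9, whose promoter is printed above, had 1472 CPM in modulated and 6287 CPM in unmodulated SMC of the library labelled Klf4-floxed (log2 -2.09), 1675 and 5883 CPM in Marfan and 2322 and 6273 CPM in control. Vcl, which shares the CArG box, moved less, at 272 CPM in modulated and 345 CPM in unmodulated SMC of the library labelled Klf4-floxed (log2 -0.34), with -0.21 in Marfan and -0.14 in control. Desmin (Des) had the lowest log2 ratio of those named in each library, at -2.21, -2.79 and -2.03.

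Among cofactors, Csrp1, Csrp2 and Filip1l were lower by 1.5-fold or more in modulated SMC of all 3 libraries and Klf4 was higher, while the LIM genes Fhl1 and Fhl2 stayed within 1.5-fold. Csrp2, a cysteine-rich LIM protein of SMC, had 2138 CPM in modulated and 5391 CPM in unmodulated SMC of the library labelled Klf4-floxed, 2121 and 5043 CPM in Marfan, and 2366 and 4436 CPM in control. Klf4 had 176 and 84.6 CPM, 68.2 and 30.1 CPM, and 95.9 and 21.4 CPM in the same order. The whole list had 2 of 16 higher and 6 lower in the library labelled Klf4-floxed, 3 of 16 higher and 5 lower in Marfan and 4 of 17 higher and 3 lower in control. In the TEAD list 4 of 15, 3 of 14 and 1 of 16 genes were higher and none lower; Ankrd1 passed the mark in each library, at log2 0.71, 0.79 and 1.10. The MEF2 list had 5, 4 and 3 of 14 genes lower and 0, 0 and 3 higher, with the MEF2 repressor gene Hdac9 at -1.05 and -0.93 in the library labelled Klf4-floxed and Marfan. The mesenchymal list had 6 of 16, 4 of 15 and 3 of 16 genes higher and 2, 0 and 1 lower, among them Meox1 at 41.7 CPM in modulated and 0.327 CPM in unmodulated SMC of the library labelled Klf4-floxed. Of 18 FOXO-linked genes 4, 3 and 3 were higher and 3, 2 and 2 lower. Gadd45a was higher and Fbxo32 and Insr lower in the library labelled Klf4-floxed and in Marfan. Over all genes 9.84%, 9.95% and 12.2% were higher and 8.06%, 6.87% and 8.45% lower in the same order of libraries. The list counts are descriptions beside these shares, and some lie near them.

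Modulation was also read as a gradient over cells of the SMC class, without dividing them into modulated and unmodulated clusters. The class itself was drawn from the clusters, and the score used the markers that named the modulated ones. The gradient is therefore not independent of the clusters. The summed UMIs of 12 modulated SMC markers, after thinning to 2000 UMIs, divided 15732 SMC into 3 score bands, with bounds at 1 and 4 UMIs; 5402 shallower cells were left out, 5148 of them Marfan. Since 8632 cells lay within 1 UMI of the lower bound and 3085 within 1 UMI of the upper one, the bands are ranges and not cell types. Over the low, middle and high bands Tead1 stood at 62.6, 78.9 and 89.7 CPM in the library labelled Klf4-floxed, at 69.2, 85.2 and 96.5 CPM in Marfan and at 52.6, 59.5 and 69.1 CPM in control. Myocd stood at 83.002, 81.8 and 59.7 CPM, at 86.6, 89.2 and 71.2 CPM and at 83.9, 88.5 and 78.8 CPM. Tead1 thus increased from band to band in every library, while Myocd was lowest in the high band. In each band the control value of Tead1 was below the other 2.

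Srf stood at 12.8, 14.9 and 14.4 CPM in the high band of the library labelled Klf4-floxed, Marfan and control, against 16.7, 17.05 and 17.3 CPM in the low band. The Myocd log2 ratio of the high to the low band was -0.48 in the library labelled Klf4-floxed, -0.28 in Marfan and -0.09 in control, which is smaller than between clusters and below 1.5-fold, so that the call of Myocd and Srf holds for clusters 5 and 17 and not for the bands. Only Tcf21 passed the mark between bands, in Marfan (10.4 CPM in the high and 4.99 CPM in the low band, log2 1.06) and in control (26.0 and 8.72 CPM, log2 1.58). Over the low, middle and high bands the summed contractile targets stood at 74138, 68618 and 52469 CPM in the library labelled Klf4-floxed, 83706, 79384 and 57477 CPM in Marfan and 71072, 67215 and 56907 CPM in control.

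**Figure D5:**
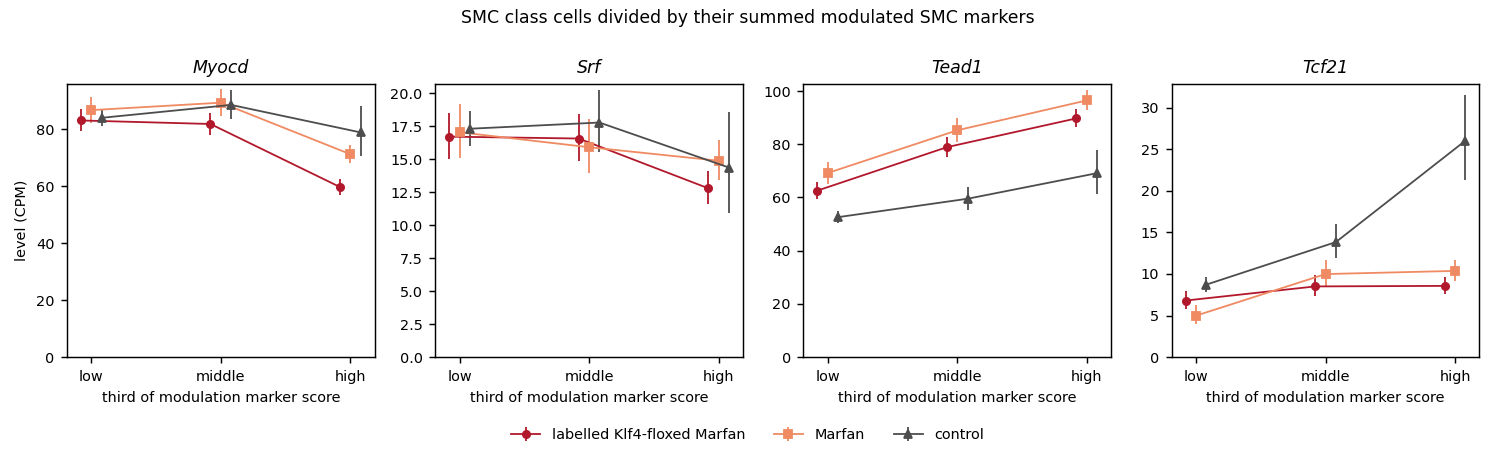
Levels in CPM (y axis) of selected genes in the low, middle and high bands of the summed modulated SMC marker score (x axis) for the library labelled Klf4-floxed Marfan, Marfan and control, with exact 95% Poisson intervals. Tead1 increases over the bands in each library, up to 89.7, 96.5 and 69.1 CPM, and Myocd drops in the high band.

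In fibroblast-like cells of the lineage-negative libraries none of the 9 factors with at least 5 CPM changed by 1.5-fold. Of these 9, 0 passed between Marfan and control, where 6.14% of 10089 genes did (3.18% higher, 2.95% lower), and 0 passed between the library labelled Klf4-floxed and Marfan, where 3.14% of 9990 genes did (1.35% higher, 1.79% lower). Tcf21 had 257 CPM in the library labelled Klf4-floxed, 223 CPM in Marfan and 244 CPM in control. Among the 9, Foxo1 was farthest from 0 in Marfan, with 61.5 CPM there and 82.0 CPM in control (log2 -0.41, interval -0.52 to -0.31). Tead1 had 83.5 CPM in Marfan and 79.3 CPM in control (log2 0.07, interval -0.03 to 0.18). Myocd was below 5 CPM in these cells and was not counted, with 61 UMIs in the library labelled Klf4-floxed, 40 in Marfan and 69 in control. Its log2 ratio was -1.22 (interval -1.82 to -0.63) for Marfan over control and 1.09 (interval 0.49 to 1.70) for the library labelled Klf4-floxed over Marfan.

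Genes whose pattern was most like a factor's were sought over 20 profiles of class and library, which share libraries and depth, as Pearson correlations of log2(CPM + 1) given as descriptions. Myocd was closest to Speg (r = 0.98), a kinase gene of striated and smooth muscle, then Tnnt2 and Cap2 (both 0.98). Tead1 was closest to Syde1 (0.98), the collagen chaperone gene Serpinh1 (0.97) and Afap1 (0.96). Tcf21 was closest to Matn2 (0.96), Prrx1 to Pdzrn3 (0.97), Foxo1 to Il6st (0.96) and Foxo3 to Runx1 (0.91). Mef2c was closest to the phagocytic receptor gene Mertk (0.94), Mef2a to Ninj1 (0.86) and Mef2d to Ppard (0.88). Srf was below 20 CPM in every profile and was not matched.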

How the data were processed

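Single-cell 3′ RNA libraries (10x Chromium) were made from the sorted fractions, 6 in all. The deposited values are counts of UMIs per gene and barcode with no normalization, made with Cell Ranger 6.1.2 per the file headers and against mm10 per the submitters' processing notes. From these counts, barcodes were kept when they had 1000 UMIs and 500 genes or more and no more than 10% mitochondrial UMIs. Doublets were scored with Scrublet in scanpy 1.11.5; its automatic threshold marked 70 in the Marfan lineage-negative library and 0 to 3 in the other 5, where the highest scores, 0.8% per 1000 cells, were removed instead (163 to 1171 cells). Cells were scaled to 10000, log-transformed and clustered (2000 variable genes, 30 principal components, 15 neighbours, Leiden resolution 1), without the 10 factors and the lists of cofactors and of MEF2, TEAD, FOXO and mesenchymal genes, of which 18 had been among the variable genes; contractile targets and modulated SMC genes were not left out. Clusters that marker genes did not name stayed unnamed.

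Counts were summed per class and library and given as CPM (per 1000000 UMIs) with exact 95% Poisson intervals, ratios with exact conditional binomial intervals and shares of cells with Clopper-Pearson limits, all of which reflect counting error alone. Genes with at least 5 CPM in either library were compared, related genes were named from at least 20 CPM by size of change, and a count of 0 was given a limit of 3 counts. Cells are not replicates, so genotype and modulation comparisons have no test. The sort was tested on summed counts with edgeR 4.0.16 (quasi-likelihood, TMM, Benjamini-Hochberg, threshold 0.05), pairing fractions by genotype since both came from the same pooled animals. The procedures were tested on simulated data. Alternatives are listed in the closing section. The members and lists were chosen with earlier results of these data known, among them the Tead1 ratio of Marfan to control.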

Additional observations from a re-analysis of the deposited data

Results flagged for a closer look

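Tcf21 had opposite signs in 2 cell classes. Its log2 ratio of CPM, the library labelled Klf4-floxed over Marfan, was -0.18 in SMC and 0.20 in fibroblast-like cells, both below 1.5-fold, and the difference was not tested, with 1 library per genotype and fraction. The sign in SMC held in 12 of 16 alternatives, which ran from -0.40 to 0.30, the highest within cluster 3. In fibroblast-like cells the sign held in 7 of 7.

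By plain CPM, Tead1 had opposite signs across the sort in different genotypes. The log2 ratio of CPM in the lineage-positive over the lineage-negative library was 0.25 in the pair labelled Klf4-floxed and 0.46 in the Marfan pair, against -0.26 in the control pair. Neither difference was tested. These ratios use library totals without TMM. In the sort test over all pairs the log2 difference of Tead1 was 0.15 under library totals and 0.49 under TMM. The sign in the control pair may therefore depend on the scaling, and its ratio under TMM is not given here.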

How the results depend on the processing

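Counts of the 10 factors past 1.5-fold moved as follows. The share of all genes past the mark is not given for these alternatives. The counts are therefore descriptions and do not set the factors apart from other genes. Marfan against control in SMC had 1 (Tead1), but 0 with totals that leave out mitochondrial and ribosomal protein genes, 0 in unmodulated clusters and 2 within cluster 5 (Tead1 0.68, Tcf21 -2.36); the 1 was Foxo3 (0.72) with each cell weighted alike and Tcf21 (-0.62) within cluster 3. The library labelled Klf4-floxed against Marfan in SMC had 0, but 1 with each cell weighted alike (Foxo3). Against control it had 0, but 1 at Leiden resolution 2 (Tcf21), 1 within cluster 4 (Tead1) and 4 within cluster 5 (Tcf21 -2.36, Mef2d -0.69, Myocd -0.66, Foxo3 -0.64). Control had only 93 cells in cluster 5, with 48, 56, 75 and 35 UMIs of these 4 genes in the same order. Modulated against unmodulated SMC had 6 over 3 libraries, 10 with the factors among the variable genes and 2 between the high and low bands. In fibroblast-like cells, Marfan against control had 0, but 1 (Myocd) with the same reduced totals and at Leiden resolutions 0.5 and 2; the library labelled Klf4-floxed against Marfan had 0, but 1 (Myocd) at 0.5. The sort test called 9 factors, 7 to 9 when each genotype was left out in turn, and 9 with no pairing by genotype (no replicate block). Of the values past their threshold, those that changed sign were Mef2a in the sort under library totals (-0.060) and Tcf21 in modulated Marfan SMC without cluster 17 (-0.086); over all single-gene ratios, called or not, 38 of 90 changed sign in at least 1 alternative. The within-cluster, unmodulated-only, library-total and cluster 17 settings were chosen after seeing the data, and the causes were not tested. The other 70 counts stayed within 1.5 times the reported one, which does not say that the genes were the same. Low counts limit the values in modulated control cells, with 21 UMIs for Srf, 38 for Foxo1, 41 for Foxo3 and 71 for Tcf21.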

Other observations

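Some lineage-positive clusters outside the SMC class had both Myocd and Tcf21 among their summed counts. In cluster 9, led by Fhl2, Gdf10 and Hsd11b1 and left unnamed, lineage-positive cells numbered 200 in the library labelled Klf4-floxed, 156 in Marfan and 116 in control. Their Tcf21 level was 127, 137 and 190 CPM and their Myocd level 29.5, 28.2 and 32.4 CPM. Tead1 stood at 128, 98.8 and 74.9 CPM there, and Prrx1 at 137, 126 and 136 CPM. These sums do not say whether single cells held both transcripts.

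Cluster 16, led by Higd1b, Rgs5 and Notch3 and left unnamed, had 101 cells in the library labelled Klf4-floxed and 117 in Marfan. It combined Myocd at 76.2 and 80.7 CPM with Prrx1 at 250.1 and 284 CPM and Tead1 at 118 and 109 CPM. Mesothelial-like cells, compared in Marfan with 66 cells, had Tead1 at 197 CPM (interval 172 to 224) and Myocd at 3.39 CPM. Neutrophil-like cells, 202 in Marfan, had Mef2d at 120.4 CPM (interval 93.1 to 153). Cluster 18 of Marfan, with 218 cells led by Il11 and Cxcl5, had Mef2c at 26.9 CPM, Tcf21 at 16.4 CPM and Prrx1 at 174 CPM.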
